A study of Mus musculus with 5 samples.

Results

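Genes for pattern recognition receptors and for the NF-kB pathway downstream of them were examined in RNAseq of kidney cortical tissue from 3 *Fnip1* null mice and 2 wildtype mice. The members are 66 of the 24421 gene symbols in the counts, taken by a rule on symbols. The rule was set with earlier results of these data known. They are the numbered Toll-like receptors, the Nlrc, Nlrp and Nlrx genes other than *Nlrc5*, the Naip genes, *Nod1* and *Nod2*, the adaptors *Myd88*, *Tirap*, *Ticam1* and *Ticam2*, *Irak1* to *Irak4*, *Traf1* to *Traf6*, the NF-kB subunits *Nfkb1*, *Nfkb2*, *Rela* and *Relb*, the inhibitors *Nfkbia* and *Tnfaip3*, and *Casp1*, *Casp4*, *Pycard*, *Il1b*, *Il18* and *Tnf*. The *Fnip1* null mice (8637, 9121 and 9210) are labelled *Fnip1*-/- and carry a mutation, induced with the chemical mutagen ENU, that disrupts *Fnip1* constitutively in all cells, leukocytes included. The wildtype mice (9055 and 9056) are labelled *Fnip1*+/+, although the study's text calls the controls of the RNAseq *Fnip1*+/-, and its figure legend counts more wildtype mice than were analysed here. The deposited file of the mouse labelled 9210 has a name with other digits, and its values are given under the label. All mice were of the C57BL6J strain, 11 to 18 weeks old and untreated, and each gave 1 library. *Fnip1* null mice are also known for a block in B cell development.

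Pattern recognition receptors detect molecules shared by groups of microbes, or molecules released by damaged cells. Toll-like receptors do so at the cell surface and in endosomes, and signal through the adaptors Myd88 and Ticam1, the Irak kinases and the Traf ubiquitin ligases to release NF-kB from its inhibitors. NOD-like receptors do so in the cytosol, where some of them assemble inflammasomes with the adaptor Pycard (ASC) and caspase-1, which cuts the precursors of the cytokines Il1b and Il18. In the kidney these genes are used by resident macrophages and dendritic cells and also by tubular epithelial cells.

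Of the 66 members, 43 had enough counts to be compared, and none of the 43 was differentially expressed by edgeR's quasi-likelihood test with an FDR of 5% and 2-fold as the thresholds, against 0.526% of the 13874 genes tested. The smallest adjusted p in that test was 0.0635, for *Pycard*. At an unadjusted p under 0.05 the same test had 15 members higher in *Fnip1* null mice (34.9% of the 43, against 14.0% of all genes tested) and 4 lower (9.30%, against 11.2%). The 15 include *Naip1* and *Nlrp3*, which had fewer than 10 counts in both wildtype mice and were compared only through the *Fnip1* null mice. Other tests on the same counts gave other totals. The edgeR exact test placed 8 members past the same threshold (18.6%, against 4.07% of all genes tested), as did the likelihood ratio test (18.6%, against 4.53%), DESeq2 placed 4 (9.30%, against 3.51%), and the older quasi-likelihood method placed 0 (against 0.533%). The 7 members higher in the exact test were *Tlr1*, *Tlr7*, *Tlr13*, *Naip1*, *Irak3*, *Traf1* and *Pycard* (background 3.03%), and the 1 lower was *Nlrc4* (background 1.04%). Of these, *Naip1* was compared only through its counts in the *Fnip1* null mice. The members past the threshold in DESeq2 were *Pycard*, *Tlr7* and *Tlr13*, higher, and *Nlrc4*, lower. The smallest p that exact permutation of 3 and 2 mice allows for any 1 gene is 0.1, so differences are described by the spread between mice and by the fits across all genes.

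Described by whether the mice overlap, 17 members (39.5%) were higher in each *Fnip1* null mouse than in both wildtype mice, against 22.9% of all genes tested. The 17 include *Naip1* and *Nlrp3*, compared only through the *Fnip1* null mice. A further 6 members (14.0%) were lower in each *Fnip1* null mouse, against 23.0%, and 20 overlapped. The median log2 fold change (*Fnip1* null over wildtype) of the tested members was 0.36, beside 0 for all genes tested. It was 0.08 over the 35 members with at least 1 CPM in at least 3 mice, 0.19 without wildtype mouse 9056 and 0.23 without *Fnip1* null mouse 9121. With library size as the only scaling the counts without overlap were 21 higher (48.8%, against 37.2% of all genes tested) and 4 lower (9.30%, against 11.4%). A total of 29 members had a positive and 14 a negative fold change, beside 7009 and 6865 of the 13874 genes tested.

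**Figure D1:**
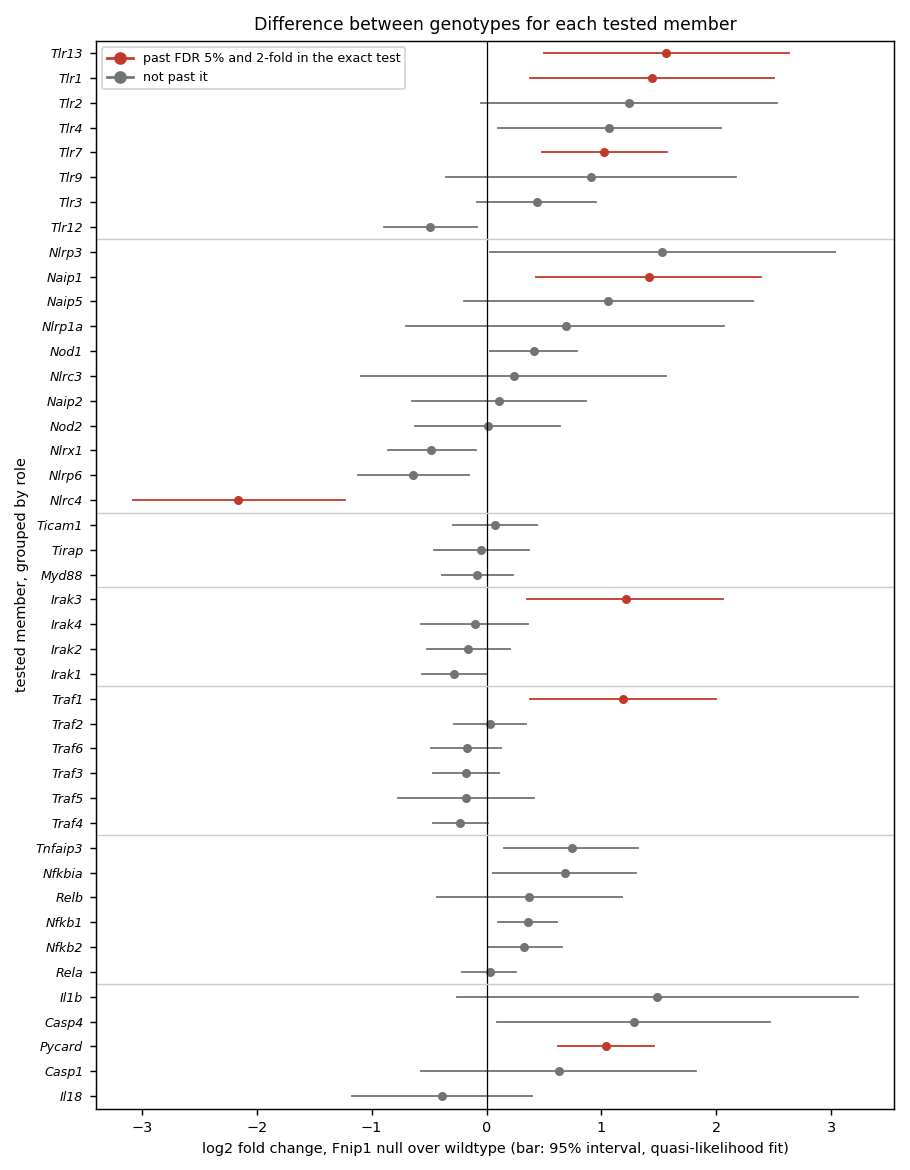
Each point is the log2 fold change of a tested member, *Fnip1* null over wildtype (x axis), from the quasi-likelihood fit, and each bar is its 95% interval. Members are grouped by role on the y axis, and the 8 in red passed an FDR of 5% and 2-fold in the exact test: 7 lie right of 0 and *Nlrc4* lies left of it at -2.16.

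The libraries held 15799114 to 19132145 counts on genes, and the members took 0.0766% to 0.0875% of them, so single members often rest on fewer than 100 counts. Levels are given as CPM, which is counts relative to library size after TMM normalization, and 3 counts, taken as the lowest level told from none, correspond to 0.158 to 0.186 CPM. These floors cover counting error only. *Fnip1* itself was at 21, 16 and 16.9 CPM in *Fnip1* null mice 8637, 9121 and 9210 and at 51.8 and 48.7 CPM in wildtype mice 9055 and 9056, so the labels hold in each library. The transcript that marks an inactive X chromosome, *Xist*, was at 314 CPM in *Fnip1* null mouse 9121 and at most 1.41 CPM in the other 4 mice, while the labels give no sex. Markers of the cortex were high in every mouse, with summed proximal tubule markers between 7760 and 11400 CPM. Markers of leukocytes and of the glomerulus were not even between the genotypes: 10 of 11 macrophage and dendritic cell markers had a positive fold change (8 past the exact test's threshold), and the 4 podocyte markers had fold changes of 0.79 to 1.33 on the log2 scale (2 past the quasi-likelihood threshold). In a whole tissue, fewer cells of a type and less RNA per cell cannot be told apart.

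**Figure D2:**
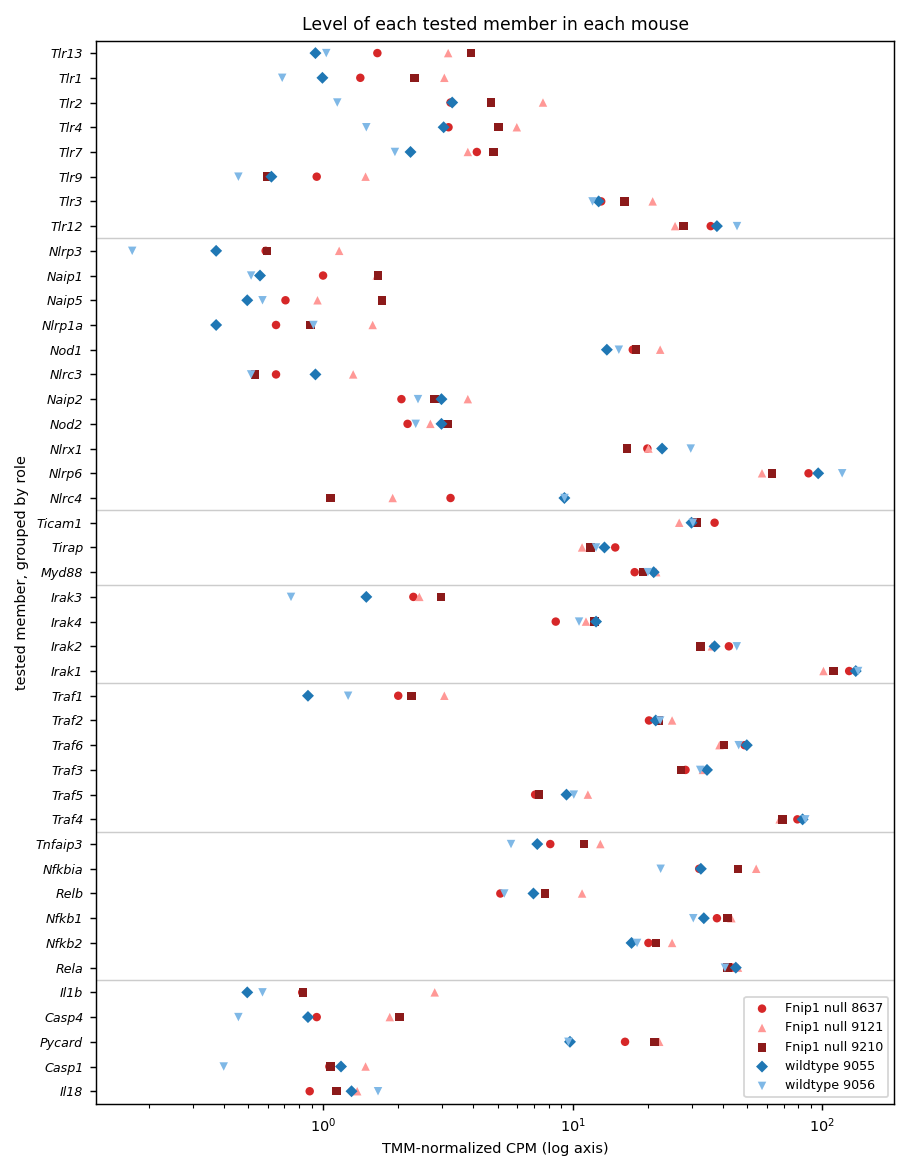
Each row is a tested member, grouped by role, and each symbol is the TMM-normalized CPM of 1 mouse (x axis, log scale), red for *Fnip1* null and blue for wildtype. Members with a median near 1 CPM or below rest on few counts, and *Nlrc4* is the row in which the wildtype mice, at 9.26 and 9.27 CPM, lie farthest right of all 3 *Fnip1* null mice.

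Per transcript length, the members with the highest levels in wildtype cortex were the signaling proteins *Traf4* and *Irak1* and the NOD-like receptor *Nlrp6*. In RPKM, the CPM divided by the length in kilobases of the longest principal transcript, *Traf4*, a Traf protein found in many epithelia, had a wildtype mean of 40.6 (40.1 to 41.1), and the kinase *Irak1* a mean of 36.1 (35.6 to 36.3). Both exceeded *Nlrp6*, a NOD-like receptor of epithelial cells, with a mean RPKM of 24.3 (21.7 to 27.1). Next came *Nfkbia*, with a mean RPKM of 17.5 (14.3 to 20.7), and *Rela*, with a mean of 15.8 (15.0 to 16.6), whose ranges overlapped. Among Toll-like receptors the level of *Tlr12* stood highest, with a wildtype mean RPKM of 13.1 (11.9 to 14.3), followed by *Tlr3* with 2.79 (2.72 to 2.88), and the other 6 tested had means between 0.155 and 0.737. *Pycard* is left out of this order because its longest principal transcript in the annotation is 3.8 kb and the transcript used was not measured.

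*Pycard* encodes ASC, the adaptor that joins inflammasome sensors to caspase-1. It lies at chr7:127989708-127993867 on the minus strand (GRCm38). Its level was 16.2, 22.2 and 21.3 CPM in *Fnip1* null mice 8637, 9121 and 9210 and 9.75 and 9.61 CPM in wildtype mice 9055 and 9056. The wildtype mice were nearly equal, and all 3 *Fnip1* null mice lay above both. The log2 fold change was 1.04 (SE 0.174, 95% interval 0.62 to 1.46), with an adjusted p of 0.0635 by the quasi-likelihood test and 0.000193 by the edgeR exact test, and between 5.57e-09 and 0.536 over the 19 alternatives that refit it. Leaving out *Fnip1* null mouse 9121 or 9210 brought its fold change to 0.95 or 0.99, under 2-fold. Exons of the antisense gene *Gm45205* cover 12.8% of the exon bases of *Pycard*, and the RNA kit does not mark strand, so reads there cannot be assigned to either gene.

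*Nlrc4* encodes the core of the inflammasome that senses bacterial flagellin and secretion needle proteins through Naip receptors, and lies at chr17:74425438-74459142 on the minus strand. It was at 3.24, 1.90 and 1.07 CPM in *Fnip1* null mice 8637, 9121 and 9210, from 55, 36 and 18 counts. In wildtype mice 9055 and 9056 it was at 9.26 and 9.27 CPM, from 149 and 162 counts. The wildtype mice agree within sampling noise and the *Fnip1* null mice spread 3-fold below them. The log2 fold change was -2.16 (SE 0.382, 95% interval -3.08 to -1.23), which is 4.46-fold higher in wildtype mice, with an adjusted p of 0.0644 by the quasi-likelihood test and 5.61e-05 by the exact test, and between 1.1e-13 and 0.536 over the 19 alternatives. It was the only member past the exact test's threshold with each of the 5 mice left out in turn.

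Promoter sequences are shown for the members with the smallest adjusted p in each direction (*Pycard*, *Nlrc4*), for *Tlr1*, which with *Pycard* passed the exact test and has a PU.1 match, and for *Nfkbia* and *Tnfaip3*, inhibitors of NF-kB that NF-kB itself is known to induce. Each is the 250 bases before the most upstream start in RefSeq (GRCm38.p6), read 5′ to 3′ on the minus strand, on which all 5 genes lie: *Pycard* chr7:127993868-127994117, *Tlr1* chr5:64933559-64933808, *Nlrc4* chr17:74459109-74459358, *Nfkbia* chr12:55492648-55492897 and *Tnfaip3* chr10:19015411-19015660. Capitals mark a match on either strand. In *Pycard* and *Tlr1* it is to the 8 letters GAGGAAGT, taken here as the PU.1 core, all of which had to match. In *Nfkbia* and *Tnfaip3* it is to the kappaB consensus. PU.1 is a transcription factor of macrophages and other leukocytes, and the kappaB consensus is the sequence that NF-kB dimers bind.
Pycard: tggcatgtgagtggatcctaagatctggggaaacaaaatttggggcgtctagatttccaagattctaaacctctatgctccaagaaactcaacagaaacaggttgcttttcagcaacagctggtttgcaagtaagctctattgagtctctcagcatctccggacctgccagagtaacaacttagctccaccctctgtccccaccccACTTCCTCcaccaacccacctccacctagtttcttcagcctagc
Tlr1: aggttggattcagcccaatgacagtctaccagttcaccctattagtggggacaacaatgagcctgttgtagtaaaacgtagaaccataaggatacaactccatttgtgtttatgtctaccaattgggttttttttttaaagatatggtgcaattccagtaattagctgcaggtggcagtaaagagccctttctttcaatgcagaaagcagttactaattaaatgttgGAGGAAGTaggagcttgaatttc
Nlrc4: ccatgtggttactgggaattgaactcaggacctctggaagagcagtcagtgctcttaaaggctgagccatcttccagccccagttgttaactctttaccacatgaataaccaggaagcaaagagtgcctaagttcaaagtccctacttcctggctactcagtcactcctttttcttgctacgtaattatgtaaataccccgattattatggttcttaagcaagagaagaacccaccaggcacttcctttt
Nfkbia: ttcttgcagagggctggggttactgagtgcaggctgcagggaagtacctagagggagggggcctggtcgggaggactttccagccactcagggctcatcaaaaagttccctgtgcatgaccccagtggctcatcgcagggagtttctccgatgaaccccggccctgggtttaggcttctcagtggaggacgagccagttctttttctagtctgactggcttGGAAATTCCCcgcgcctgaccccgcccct
Tnfaip3: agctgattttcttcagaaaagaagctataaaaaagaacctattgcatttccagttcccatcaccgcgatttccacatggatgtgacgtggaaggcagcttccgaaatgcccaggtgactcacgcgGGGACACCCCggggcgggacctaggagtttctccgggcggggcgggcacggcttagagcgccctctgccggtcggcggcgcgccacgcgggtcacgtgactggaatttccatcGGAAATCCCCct
The first matched base lies 44 bases before the start in *Pycard*, 23 in *Tlr1* and 29 in *Nfkbia*. *Tnfaip3* has a pair of matches, 125 and 12 bases before the start. *Nlrc4* has no exact match to either motif, but its sequence holds ACTTCCT, which is GAGGAAGT without its first letter, read on the other strand. Over windows of 300 bases that also take in the 50 bases after the start, 9 of the 39 tested members with an entry held a kappaB match and 4.5% of the 32817 promoters did. The 9 were *Casp4*, *Naip5*, *Nfkb2*, *Nfkbia*, *Nlrp3*, *Tlr2*, *Tlr3*, *Tnfaip3* and *Traf3*. The PU.1 core was in 5 of the 39 (*Nlrp1a*, *Pycard*, *Tlr1*, *Tlr9* and *Traf3*) and in 3.2% of promoters. *Tlr7*, *Tlr13*, *Naip1*, *Irak3* and *Traf1*, also higher in the exact test, had no match to it or no entry. For both motifs a member counted if any of its starts had a match. The percentages are of single promoters, so the shares are of unlike units. The letters are a description of these windows, and no binding was measured.

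Toll-like receptors were the group with the highest median fold change among receptors. Of 12 members, 8 were tested, and 7 of the 8 had a positive and 1 a negative fold change, with a median of 1.05 on the log2 scale. In the quasi-likelihood test none passed, with adjusted p from 0.0832 to 0.317, and 3 (*Tlr1*, *Tlr7* and *Tlr13*) passed in the exact test. *Tlr7*, the endosomal receptor for single-stranded RNA, was at 4.13, 3.80 and 4.82 CPM in *Fnip1* null mice 8637, 9121 and 9210 and at 2.24 and 1.94 CPM in wildtype mice 9055 and 9056. It had the tightest *Fnip1* null values of the group, all above both wildtype mice, and its log2 fold change was 1.02 (SE 0.226, adjusted p 0.0832 by the quasi-likelihood test and 0.0163 by the exact test, 0.0106 to 0.579 over the alternatives). *Tlr7* lies on the X chromosome (chrX:167304929-167330558), and mouse 9121, the library with *Xist*, was the lowest of the 3 *Fnip1* null mice.

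*Tlr13*, also X-linked (chrX:106143204-106160493) and a receptor for bacterial ribosomal RNA, was at 1.65, 3.17 and 3.92 CPM in *Fnip1* null mice 8637, 9121 and 9210. In wildtype mice 9055 and 9056 it was at 0.932 and 1.03 CPM. All 3 *Fnip1* null mice lay above both wildtype mice, with mouse 8637 nearest to them. Its log2 fold change of 1.56 (SE 0.441) had an adjusted p of 0.113 by the quasi-likelihood test and 0.0267 by the exact test (2.11e-05 to 0.565 over the alternatives). *Tlr1*, the partner of *Tlr2* for triacylated lipopeptides (chr5:64924679-64933563), was at 1.41, 3.06 and 2.32 CPM in *Fnip1* null mice 8637, 9121 and 9210 and at 0.994 and 0.686 CPM in wildtype mice 9055 and 9056. The mice did not overlap, and the log2 fold change was 1.44 (SE 0.438, adjusted p 0.127 by the quasi-likelihood test and 0.0483 by the exact test, 0.000741 to 0.742 over the alternatives).

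*Tlr2* and *Tlr4*, cell surface receptors for bacterial cell wall components, varied more between the wildtype mice. *Tlr2*, which recognizes lipopeptides, was at 3.24, 7.60 and 4.70 CPM in *Fnip1* null mice 8637, 9121 and 9210 and at 3.29 and 1.14 CPM in wildtype mice 9055 and 9056. *Fnip1* null mouse 8637 lay inside the wildtype range. Its log2 fold change was 1.24 (SE 0.532) with all mice, 2.18 without wildtype mouse 9055 and 0.66 without wildtype mouse 9056. *Tlr4*, the receptor for lipopolysaccharide, was at 3.18, 5.97 and 5.05 CPM against 3.04 and 1.49 CPM in the same order of mice, so that mouse 8637 lay just above wildtype mouse 9055. *Tlr4* had a log2 fold change of 1.07 (SE 0.402, adjusted p 0.173 by the quasi-likelihood test), which was 1.67 without wildtype mouse 9055 and 0.64 without wildtype mouse 9056.

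The Toll-like receptors with the highest levels differed least. *Tlr12*, which in mice detects a profilin of apicomplexan parasites, was at 35.7, 25.7 and 27.8 CPM in *Fnip1* null mice 8637, 9121 and 9210 and at 37.8 and 45.5 CPM in wildtype mice 9055 and 9056. It was the single tested Toll-like receptor lower in all 3 *Fnip1* null mice, and its log2 fold change was -0.49 (SE 0.168, adjusted p 0.151). *Tlr3*, the endosomal receptor for double-stranded RNA, had a log2 fold change of 0.44 (SE 0.214) and *Tlr9*, for unmethylated CpG DNA, one of 0.91 (SE 0.521), both with adjusted p above 0.25 by the quasi-likelihood test. *Tlr5*, *Tlr6*, *Tlr8* and *Tlr11* were detected but not tested, with at most 19 counts in a mouse. Of these, *Tlr8* had 9, 13 and 8 counts in *Fnip1* null mice 8637, 9121 and 9210 and 3 and 2 counts in wildtype mice 9055 and 9056, and *Tlr11* had 8, 18 and 10 counts against 3 and 6.

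The NOD-like receptors and Naip proteins were the largest group, with 28 members, and the most uneven. Of these, 11 had 0 counts in every mouse, all of them Nlrp genes (*Nlrp2*, *Nlrp4a*, *Nlrp4b*, *Nlrp4c*, *Nlrp4e*, *Nlrp4g*, *Nlrp5*, *Nlrp9a*, *Nlrp9b*, *Nlrp9c* and *Nlrp14*), several of which are known as genes of oocytes and early embryos. A further 6 had too few counts to be tested. Of the 11 tested, 8 had a positive and 3 a negative fold change, with a median of 0.24 on the log2 scale, and none passed the quasi-likelihood threshold. In the exact test *Naip1*, higher in *Fnip1* null mice, and *Nlrc4*, described above and lower in them, passed the threshold.

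*Naip1*, a sensor that hands needle proteins to Nlrc4, lies at chr13:100407764-100452869. It was at 1, 1.64 and 1.66 CPM in *Fnip1* null mice 8637, 9121 and 9210 and at 0.559 and 0.515 CPM, 9 counts each, in wildtype mice 9055 and 9056. All 3 *Fnip1* null mice were above both wildtype mice, but *Naip1* met the minimum count only through the *Fnip1* null mice, so a gene of its level that was lower in them would not have been tested. The log2 fold change of *Naip1* was 1.41 (SE 0.406, adjusted p 0.116 by the quasi-likelihood test and 0.0499 by the exact test, 0.00463 to 0.663 over the alternatives). *Naip5*, a flagellin sensor, had a log2 fold change of 1.06 (SE 0.520) and *Naip2*, a sensor of the secretion rod, one of 0.11 (SE 0.313), and neither passed. Reads that align to more than 1 place were not counted, so levels of the closely related Naip genes and of *Nlrp1a* and *Nlrp1b* are uncertain.

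*Nlrp3*, the inflammasome sensor that responds to membrane damage and ion efflux, was at 0.589, 1.16 and 0.595 CPM in *Fnip1* null mice 8637, 9121 and 9210 and at 0.373 and 0.172 CPM in wildtype mice 9055 and 9056. The mice did not overlap, but the wildtype values rest on 6 and 3 counts, and the 95% interval of the log2 fold change ran from 0.03 to 3.03 around 1.53 (2.16 without wildtype mouse 9055). *Nlrp3* and *Naip1* were the members tested although both wildtype mice had fewer than 10 counts, and no tested member had fewer than 10 counts in all 3 *Fnip1* null mice. The filter, at least 10 counts in at least 3 mice, cannot keep a gene detected in the 2 wildtype mice alone.

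Of the NOD-like receptors with high levels, *Nlrp6* and *Nlrx1* were lower and *Nod1* higher in each *Fnip1* null mouse. *Nlrp6*, with roles in antiviral and mucosal defense in epithelia, was at 88.0, 57.3 and 62.8 CPM in *Fnip1* null mice 8637, 9121 and 9210 and at 96.2 and 120 CPM in wildtype mice 9055 and 9056. Mouse 8637 was again the nearest to the wildtype mice. Its log2 fold change was -0.64 (SE 0.2), with an adjusted p of 0.131 by the quasi-likelihood test and 0.0509 by the exact test. *Nlrx1*, a mitochondrial NOD-like receptor that dampens antiviral signaling, had a log2 fold change of -0.48 (SE 0.159), and *Nod1*, which detects a peptide of bacterial peptidoglycan, one of 0.41 (SE 0.156), with adjusted p of 0.143 and 0.176. *Nod2*, for muramyl dipeptide, was at 0.01 (95% interval -0.62 to 0.64).

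The adaptors that link Toll-like receptors to the kinases had the smallest fold changes. *Myd88*, used by nearly all Toll-like receptors, was at 17.7, 21.6 and 19.1 CPM in *Fnip1* null mice 8637, 9121 and 9210 and at 21.1 and 20 CPM in wildtype mice 9055 and 9056. *Tirap*, which brings Myd88 to Tlr2 and Tlr4, was at 14.8, 10.9 and 11.8 CPM against 13.4 and 12.4 CPM in the same order. *Ticam1* (TRIF), the adaptor of Tlr3, was at 37.0, 26.7 and 31.4 CPM against 29.9 and 30.3 CPM. In all 3 genes the genotypes overlapped, and the 95% intervals of the log2 fold changes were -0.39 to 0.23 for *Myd88*, -0.46 to 0.37 for *Tirap* and -0.29 to 0.44 for *Ticam1*, so that a 2-fold difference lies outside each (with library size as the only scaling *Myd88* was at 0.09 and *Tirap* at 0.11). Exons of *Acaa1a* on the other strand cover 14.3% of the exon bases of *Myd88*. *Ticam2* had at most 17 counts in a mouse and was not tested.

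Among the Irak kinases, *Irak3* stood apart. *Irak3* (IRAK-M), an inactive kinase that restrains Toll-like receptor signaling in macrophages (chr10:120141648-120202130), was at 2.30, 2.43 and 2.97 CPM in *Fnip1* null mice 8637, 9121 and 9210 and at 1.49 and 0.744 CPM in wildtype mice 9055 and 9056. The *Fnip1* null mice were close together and above both wildtype mice, which differed from each other 2-fold. The log2 fold change was 1.21 (SE 0.355, adjusted p 0.120 by the quasi-likelihood test and 0.0482 by the exact test, 0.0226 to 0.816 over the alternatives), and it was 0.78 without wildtype mouse 9056 and 1.78 without wildtype mouse 9055. *Irak1*, a kinase recruited by Myd88 and the most abundant of the group, was at 128, 101 and 111 CPM against 136 and 139 CPM in the same order of mice, lower in each *Fnip1* null mouse, with a log2 fold change of -0.28 (SE 0.116, adjusted p 0.202). *Irak2* was at 42.2, 36.1 and 32.5 CPM in *Fnip1* null mice against 37 and 45.4 CPM in wildtype mice, which overlapped. *Irak2* and *Irak4*, which join Irak1 in the same complex, had log2 fold changes of -0.16 and -0.10, and their genotypes overlapped (with library size as the only scaling they were at 0.00 and 0.06).

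The Traf proteins were likewise near the wildtype level apart from 1 member. *Traf1*, which lacks the ubiquitin ligase domain of the other Traf proteins and is known as an NF-kB target in leukocytes (chr2:34941750-34961772), was at 2.00, 3.06 and 2.26 CPM in *Fnip1* null mice 8637, 9121 and 9210 and at 0.870 and 1.26 CPM in wildtype mice 9055 and 9056. All *Fnip1* null mice were above both wildtype mice. The log2 fold change was 1.19 (SE 0.335, adjusted p 0.113 by the quasi-likelihood test and 0.0431 by the exact test, 0.00868 to 0.536 over the alternatives). *Traf4*, the most abundant member of the group, was at 79.4, 67.4 and 69.2 CPM against 83.3 and 85.4 CPM in the same order, and its log2 fold change was -0.23 (SE 0.101, adjusted p 0.219). *Traf3* was at 28.3, 33.2 and 27.1 CPM against 34.5 and 32.4 CPM, and *Traf5* at 7.07, 11.5 and 7.31 CPM against 9.44 and 10.1 CPM, with mouse 9121 above or between the wildtype mice in both. *Traf6*, the ubiquitin ligase that acts directly after the Irak kinases, was at -0.17 (95% interval -0.48 to 0.13), *Traf2* at 0.03, and *Traf3* and *Traf5* both at -0.18 (*Traf5* at 0.00 with library size as the only scaling).

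NF-kB subunits and inhibitors all had positive fold changes on the log2 scale, from 0.03 to 0.74 with a median of 0.37 (*Rela* reached -0.04 without wildtype mouse 9056 and -0.01 without mouse 9121). None of the 6 passed a threshold in the quasi-likelihood test (adjusted p 0.122 to 0.882) or in the exact test, and 4 had an unadjusted quasi-likelihood p under 0.05. The inhibitors had larger fold changes than the subunits. *Tnfaip3* (A20), a ubiquitin-editing enzyme that ends NF-kB signaling, was at 8.13, 12.9 and 11.1 CPM in *Fnip1* null mice 8637, 9121 and 9210 and at 7.21 and 5.66 CPM in wildtype mice 9055 and 9056. *Nfkbia* (IkB-alpha), which holds NF-kB in the cytoplasm, was at 32.1, 54.3 and 46.0 CPM against 32.6 and 22.5 CPM in the same order. Mouse 8637 was above both wildtype mice for *Tnfaip3* and between them for *Nfkbia*. The log2 fold changes were 0.74 (SE 0.242) for *Tnfaip3* and 0.68 (SE 0.257) for *Nfkbia*, with adjusted p of 0.141 and 0.175.

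The precursors *Nfkb1* and *Nfkb2*, which are cut to the DNA-binding subunits p50 and p52, had smaller fold changes than the inhibitors, with smaller standard errors. *Nfkb1* was at 37.8, 43.2 and 41.6 CPM in *Fnip1* null mice 8637, 9121 and 9210 and at 33.5 and 30.4 CPM in wildtype mice 9055 and 9056, with a log2 fold change of 0.36 (SE 0.107, adjusted p 0.122). *Nfkb2* had a log2 fold change of 0.33 (SE 0.133, adjusted p 0.189), and exons of genes on the other strand cover 19.7% of its exon bases. Neither gene's mice overlapped. *Relb*, the partner of p52, was at 5.13, 10.9 and 7.73 CPM against 6.96 and 5.32 CPM and overlapped. *Rela*, the main activating subunit, was at 43.6, 45.9 and 41.6 CPM against 45 and 40.7 CPM, and its log2 fold change of 0.03 had a 95% interval of -0.21 to 0.26.

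Of the inflammasome proteins and cytokines, *Pycard* apart, the values were low. *Casp4* (caspase-11 in mice), the sensor of cytosolic lipopolysaccharide, was at 0.943, 1.85 and 2.02 CPM in *Fnip1* null mice 8637, 9121 and 9210 and at 0.870 and 0.458 CPM in wildtype mice 9055 and 9056, with a log2 fold change of 1.28 (SE 0.493, adjusted p 0.178). *Il1b* was at 0.825, 2.80 and 0.832 CPM against 0.497 and 0.572 CPM. Mouse 9121 was far above the other mice, and the log2 fold change of *Il1b* was 1.48 with all mice and 0.62 without mouse 9121. *Casp1*, the caspase that Pycard recruits, had a log2 fold change of 0.63 (SE 0.495), which was 1.58 without wildtype mouse 9055 and 0.03 without wildtype mouse 9056, and *Il18* one of -0.39 (SE 0.326), and both overlapped between genotypes. *Tnf* had 3, 7 and 2 counts in *Fnip1* null mice 8637, 9121 and 9210 and 2 and 1 counts in wildtype mice 9055 and 9056, and was not tested. *Pycard* was measured with 157 to 421 counts in a mouse, whereas the caspases and cytokines of the group had at most 53.

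Mice differed within the genotypes in a shared way. Mouse 9121 was the highest of the 5 in 23 of the 43 tested members, and mouse 8637 was the lowest of the 3 *Fnip1* null mice in 24 of the 29 members with a positive fold change. Wildtype mouse 9056 was the lowest of the 5 in 17 members. Without mouse 8637 the quasi-likelihood test placed 8 members past the threshold (*Casp4*, *Naip1*, *Pycard*, *Tlr1*, *Tlr7*, *Tlr13* and *Traf1* higher, *Nlrc4* lower), against 6.57% of all genes tested. Without mouse 9121 it placed 0 (background 0.995%), and without mouse 9210, 9055 or 9056 it placed 0 members and 0 of all genes tested. The exact test placed 12 members without mouse 8637 (background 8.69%), 2 without mouse 9121 (*Tlr7* and *Nlrc4*, background 3.33%) and 1, *Nlrc4*, without mouse 9210 (background 1.85%). It placed 3 without wildtype mouse 9055 (*Irak3*, *Pycard* and *Nlrc4*, background 3.20%) and 1, *Nlrc4*, without wildtype mouse 9056 (background 0.951%). A fit that leaves 1 wildtype mouse takes its spread to be that of the *Fnip1* null mice.

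**Figure D3:**
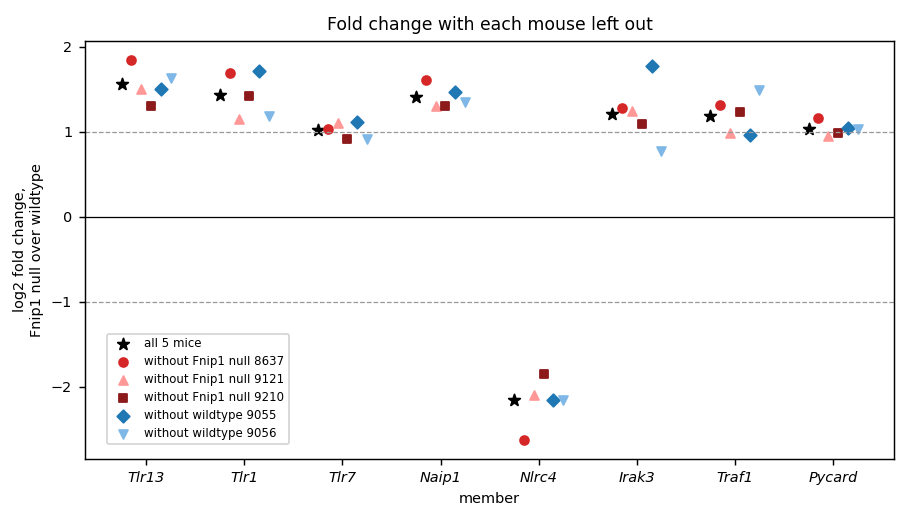
For the 8 members past the exact test's threshold with all mice, the y axis gives the log2 fold change from the quasi-likelihood fit with all 5 mice (star) and with each mouse left out (other symbols), and dashed lines mark 2-fold. The sign of all 8 is kept in each case, *Irak3* ranges from 0.78 to 1.78 and *Nlrc4* from -2.62 to -1.85.

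Several lists of cell type markers differed between the same mice. Relative to the wildtype mean, the median log2 level of the 11 macrophage and dendritic cell markers was 0.56, 1.57 and 1.08 in *Fnip1* null mice 8637, 9121 and 9210, against 0.18 and -0.20 in wildtype mice 9055 and 9056. The median over the 8 tested Toll-like receptors followed the same order, at 0.47, 1.08, 0.97, 0.09 and -0.10. So did the 5 distal nephron and collecting duct markers, at 0.42, 0.58, 0.43, 0.03 and -0.03, and the 5 endothelial markers, at 0.33, 0.87, 0.65, 0.37 and -0.50, were likewise highest in mouse 9121 and lowest in mouse 9056. All 5 genes of each of these lists had a positive fold change, and 1 distal nephron and 0 endothelial markers passed an FDR of 5% and 2-fold in the exact test. The 6 tested T cell markers, at 0.27, 1.39, 0.43, 0.29 and -0.36, were also highest in mouse 9121 and lowest in mouse 9056. In the same order of mice the 4 tested neutrophil markers were at 1.11, 2.02, 1.73, -0.02 and 0.02. The 2 tested B cell markers, 1 with a positive and 1 with a negative fold change, were at -0.41, -0.16, -0.18, 0.02 and -0.03. The marker *Itgax* (CD11c) was at 4.83, 5.76 and 5.05 CPM against 2.11 and 1.49 CPM, whereas *Csf1r*, the receptor for macrophage colony-stimulating factor, was lower at 38.2, 63.9 and 36.4 CPM against 72.4 and 68.4 CPM. The summed macrophage and dendritic cell markers were at 108 to 228 CPM in *Fnip1* null and 104 to 127 CPM in wildtype mice, and the summed T cell markers at 8.19 to 20 and 3.66 to 7.08 CPM. The 9 neutrophil markers summed to 7.72 to 11 CPM in *Fnip1* null and 1.60 to 1.80 CPM in wildtype mice. The 4 tested had a median log2 fold change of 2.75, while the neutrophil granule genes *Mpo*, *Elane* and *Camp* were at 0 in every mouse. Of the 4, *S100a8* (1 and 2 counts in wildtype mice 9055 and 9056) and *S100a9* (5 and 5) met the minimum count only through the *Fnip1* null mice. Their log2 fold changes were 4.31 and 3.66, against 1.84 for *Csf3r* and 0.52 for *Cxcr2*. The T cell marker *Cd3d*, with 3 and 7 counts in the wildtype mice, was likewise tested only through the *Fnip1* null mice. The part of these cell types in the differences of the receptors was not tested.

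**Figure D4:**
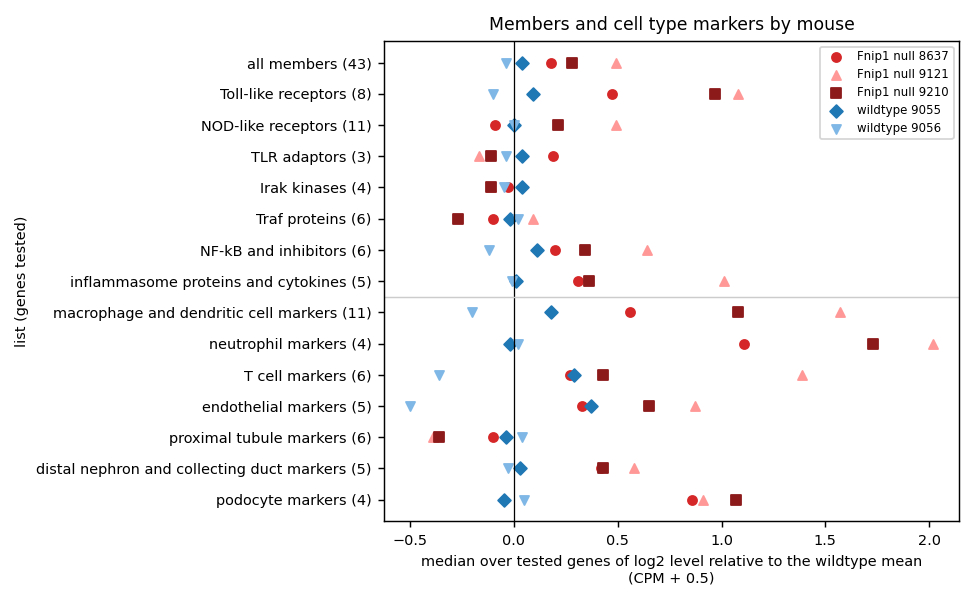
The x axis is the median, over the tested genes of a list, of the log2 level (CPM + 0.5) relative to the wildtype mean, 1 symbol for each mouse, with the members by role above the line and cell type markers below it. Toll-like receptors reach 0.47 to 1.08 in *Fnip1* null mice and macrophage and dendritic cell markers 0.56 to 1.57, with mouse 8637 lowest and mouse 9121 highest in both.

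Of 95 other genes of these pathways, in lists given by role, 77 were tested and none passed the quasi-likelihood threshold. The smallest adjusted p was 0.0644, 20 were higher (26.0%, against 14.0% of all genes tested) and 8 lower (10.4%, against 11.2%) at an unadjusted p under 0.05. The exact test placed 3 higher (3.90%, against 3.03%) and 1 lower (1.30%, against 1.04%), shares near the background. The median log2 fold change was 0.31. The largest was that of *Lcn2*, a siderophore-binding protein that injured tubules secrete, at 3.18, 2.80 and 5.35 CPM in *Fnip1* null mice 8637, 9121 and 9210 and at 0.746 and 0.686 CPM in wildtype mice 9055 and 9056 (log2 fold change 2.38, adjusted p 8.63e-05 by the exact test and 4.78e-06 to 0.536 over the alternatives). *Casp12*, a caspase of the endoplasmic reticulum encoded near *Casp4*, was 2.04 higher on the log2 scale, with an exact test adjusted p of 0.00079 (1.57e-05 to 0.536 over the alternatives). The chemokine *Ccl5*, an NF-kB target, was at 2.59, 7.34 and 2.26 CPM against 1.37 and 0.744 CPM in the same order of mice. Mouse 9121 lay far above the others, and the log2 fold change of *Ccl5* was 1.96 with all mice (exact test adjusted p 0.0464, 0.00825 to 0.78 over the alternatives) and 1.21 without mouse 9121 (exact test adjusted p 0.0661). In the exact test *Lcn2* and *Casp12* did not pass without wildtype mouse 9056, and *Ccl5* did not pass without either wildtype mouse.

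The 1 lower gene was *Cd36*, a scavenger receptor that assists Tlr2 and takes up fatty acids, at 410, 145 and 151 CPM in *Fnip1* null mice 8637, 9121 and 9210 and at 754 and 795 CPM in wildtype mice 9055 and 9056 (log2 fold change -1.72, adjusted p 0.00675 by the exact test and 0.105 by the quasi-likelihood test, 7.67e-50 to 0.56 over the alternatives). It did not pass the exact test without mouse 9210, 9055 or 9056, and was at -2.39 without mouse 8637. Of the 10 Toll-like receptor accessory proteins, 7 had positive fold changes with a list median of 0.60. The 11 subunits of the IkB kinase complex and the kinases upstream had a median of -0.07, with 4 positive and 7 negative, and the 10 tested negative regulators a median of 0.06. The 11 tested NF-kB target genes had a median of 0.66, with 10 positive and 1 negative. The 13 tested IL-1 family receptors and inflammasome effectors had one of 0.70, with 10 positive and 3 negative. Among the positive, *Il18rap* (8 and 6 counts in wildtype mice 9055 and 9056) met the minimum count only through the *Fnip1* null mice. The same holds for *Mb21d1* (9 and 7 counts), a positive gene among the nucleic acid sensors. The 5 tested other Rel and IkB proteins had a median of 0.46, with 3 positive and 2 negative. The 6 tested C-type lectin receptors and partners had a median of 0.76, led by *Clec7a* (Dectin-1, a beta-glucan receptor) at 1.33, and the 11 nucleic acid sensors one of 0.39, led by *Tmem173* (STING, which signals from cytosolic DNA) at 1.18. Neither of these was past the exact test's threshold (adjusted p 0.0718 and 0.0638). Among the other Rel and IkB proteins the leading gene was *Nfkbiz* at 0.90 (an atypical IkB protein), without a call. Among the kinases it was *Map3k8* at 0.85 (a kinase upstream of Erk), also without a call. Among the negative regulators it was *Zc3h12a* at 0.60 (an RNase that degrades cytokine transcripts), again without a call.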

How the data were processed

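RNAseq libraries of kidney cortical tissue from 3 *Fnip1* null and 2 wildtype mice were made by the authors with a TruSeq RNA kit and sequenced as paired reads of 50 bases. Per the labels and methods, the authors used TopHat2 2.1.0 with mm10 for alignment and HTSeq 0.6.1 for the counting per symbol, and the deposited values are these raw counts. The strand setting and the annotation release are not given in the sources used here. Rows that name no gene (reads without a feature, ambiguous or not uniquely aligned) held 39.0% to 42.8% of each file and were left out.

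The tests were run with edgeR 4.0.16 and limma 3.58.1 under R 4.3.3. Genes needed 10 counts in at least 3 mice, libraries were TMM-normalized, and genotypes were compared over all 13874 remaining genes with the quasi-likelihood test (the edgeR 4 method), with Benjamini-Hochberg adjustment. The function's own default in this version is the older method, which is among the 20 alternatives together with the exact and likelihood ratio tests, DESeq2 1.42.0, other scalings and filters, and each mouse left out. Standard errors are the fold change divided by the square root of its F statistic. The differential expression fits were tested on simulated counts with known fold changes, and the other steps were not tested in this way. Replicates of a genotype differed by more than sampling noise (chi-square per degree of freedom 9.58 to 67), and p-values measure the spread between these mice. Coordinates, transcript lengths and overlaps are from GENCODE M21 (GRCm38), matched by symbol for 64 of 66 members, and promoters from RefSeq GRCm38.p6. Values in every mouse are given for members past the quasi-likelihood or exact threshold and, in each role, for the 3 largest fold changes and the highest level. Other pathway genes are named when past either threshold, as the largest fold change of their list, or when tested only through the *Fnip1* null mice. Members, lists and alternatives were chosen with earlier results of these data known.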

Additional observations from a re-analysis of the deposited data

How the results depend on the processing

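The count of members past the threshold was 0 under the quasi-likelihood test and stayed 0 with the older method, other scalings, other filters and no fold threshold, while the exact and likelihood ratio tests gave 8 each and DESeq2 4. For the other pathway genes these tests gave 4, 4 and 3. With each mouse left out, the members' count ran from 0 to 8 in the quasi-likelihood and 1 to 12 in the exact test (8 and 12 without mouse 8637, 2 without mouse 9121), and that of the other pathway genes from 0 to 11 and 0 to 16 (11 and 16 without mouse 8637, 14.3% and 20.8% of the 77 against 6.57% and 8.69% of all genes tested, and 1 and 5 without mouse 9121, 1.30% and 6.49% against 0.995% and 3.33%). The median log2 fold change of tested members was 0.36, 0.52 with library size alone (which moves the median of all genes from 0 to 0.17), 0.59 with no filter on low counts, 0.08 when 1 CPM in at least 3 mice was required, and 0.19 to 0.41 with each mouse left out. Of the 43 tested members 32 kept their sign under each alternative. With library size alone, log2 fold changes became 0.00 for *Irak2* and *Traf5*, 0.06 for *Irak4*, 0.09 for *Myd88* and 0.11 for *Tirap*, and with no filter that of *Nod2* became 0.00. With each mouse left out, in the quasi-likelihood and exact tests alike unless given, they ranged from -0.21 to 0.04 for *Irak4* (0.01 without mouse 9055), -0.15 to 0.30 for *Naip2*, -0.27 to 0.71 for *Nlrc3* (exact test -0.28 to 0.70), -0.16 to 0.19 for *Nod2* (-0.12 without mouse 9210), -0.04 to 0.10 for *Rela* (-0.01 without mouse 9121), -0.05 to 0.18 for *Ticam1*, -0.18 to 0.04 for *Tirap* (0.01 without mouse 9055) and -0.05 to 0.11 for *Traf2*. The cause of these moves was not tested. No paired analysis was possible because the genotypes share no replicate numbers. Members under 1 CPM rest on few counts, which limits what could be detected for them.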

Other observations

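*Nlrc5*, a NOD-like receptor that activates the genes of MHC class I and is not among the members, had 131, 217 and 88 counts in *Fnip1* null mice 8637, 9121 and 9210 and 71 and 47 counts in wildtype mice 9055 and 9056, a log2 fold change of 1.20 (SE 0.392) with an adjusted p of 0.139 by the quasi-likelihood test and 0.052 by the edgeR exact test. Among members with too few counts to be tested, *Naip6* had 3, 12 and 6 counts in *Fnip1* null mice 8637, 9121 and 9210 and 1 count in each wildtype mouse, and *Nlrp10* had 4, 3 and 3 counts and 0 in both wildtype mice. *Cd79b*, a component of the B cell receptor, was at 0.530, 0.581 and 0.0595 CPM in *Fnip1* null mice 8637, 9121 and 9210 and at 1.49 and 1.20 CPM in wildtype mice 9055 and 9056. *Cr2*, the other tested B cell marker, went the other way, at 1.53, 2.27 and 4.70 CPM against 1.43 and 1.60 CPM in the same order. The log2 fold changes were -1.74 for *Cd79b* and 0.89 for *Cr2*, and 4 further B cell markers had too few counts to be tested.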
